A study of Mus musculus with 3 samples.

Results

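The genes of the TGF-β, BMP and activin pathway were examined in 5TGM1.BRE, a mouse multiple myeloma line that resists bortezomib and engrafts in mice. Members were the gene symbols matching the names of the TGF-β, BMP, GDF, activin and inhibin genes, their receptors and the SMAD genes, together with Nog, Chrd, Grem1, Fst, Smurf1, Smurf2, Id1, Ski and Skil. The rule found 59 of the 24467 gene symbols in each table and used no measured value. Polyadenylated RNA of 3 samples was sequenced, and all 3 fell in 1 group by their titles. The parental 5TGM1 line is a mouse myeloma that arose in C57BL/KaLwRij mice. The engraftable resistant cells came from the marrow of such animals and were kept in 10 nM bortezomib, an inhibitor of the proteasome. They were off the drug for at least 72 h before RNA was taken from 10000000 cells per sample. The serum level was 20% for all 3 samples. Parental 5TGM1 cells and the resistant line 5TGM1.BR were not analysed here, so the values are levels within the engraftable cells and not changes with resistance. Whether the line is a clone, or the samples separate cultures, is not in the labels, so each SD is the spread of 3 samples and may be technical. The p-values concern these 3 samples only and do not measure the size of that spread.

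Ligands of this family are secreted dimers that bring together type I and type II receptor kinases at the cell surface. The type I receptor then phosphorylates receptor-activated SMAD proteins, which join SMAD4 and enter the nucleus. TGF-β and activin receptors act mainly on SMAD2 and SMAD3, and BMP receptors on SMAD1, SMAD5 and SMAD9, while SMAD6 and SMAD7 inhibit the pathway. In bone marrow, TGF-β stored in the bone matrix restrains many blood cells, BMPs drive bone formation, and activin A has been tied to bone loss in myeloma.

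The libraries held 62303493, 45705994 and 59402218 gene counts for replicates 1, 2 and 3. Levels are given as CPM (counts per 1000000 counts of the library) and as TPM, computed here from counts per kilobase of union exon length (GENCODE M21, GRCm38) and used wherever 1 gene is set against another. A gene with no counts may lie at up to 0.0179 CPM over all 3 libraries, the level of 3 counts, or at up to 0.0220 CPM by the exact two-sided 95% Poisson interval used for low counts, and such limits cover counting error only. Of 10 plasma cell markers, 9 reached 1 CPM in every library, with Sdc1 at 34125, 24571 and 31517 counts, while Tnfrsf17 had 41, 19 and 40. None of the 9 stromal, 8 myeloid, 5 T and NK cell or 5 erythroid markers reached 1 CPM in every library. Their summed levels ran from 1.09 to 1.16 CPM for stromal, 0.197 to 0.488 CPM for myeloid, 0.131 to 0.289 CPM for T and NK cell and 0.337 to 0.372 CPM for erythroid genes. Of the 55 markers in all lists, 15 had 0 counts, among them Col1a2, Lum, S100a8, S100a9, Cd3e, Pf4 and Ppbp. By contrast, Col1a1 had 111 counts in all, Lepr 52, Klf1 57, Lck 26, Lyz2 24 and Cd3d 12. Pecam1, at 5.31 CPM, was the single endothelial marker of 5, and Itga2b, at 16.2 CPM, the single megakaryocyte and platelet marker of 5, at 1 CPM or more, and of 8 B cell markers 2 were, Fcer2a and Ms4a1. Replicate 3 stood apart from the other libraries: the mean chi-square per degree of freedom over genes was 65.1 against replicate 1 and 44.4 against replicate 2, and 4.0 between replicates 1 and 2. In bulk RNA, fewer cells expressing a gene and less of its RNA per cell cannot be told apart.

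Most of the 59 genes were silent or nearly so, and the majority of all genes also fell short of 1 CPM in some library. This holds for the genes found by name: of 89 further pathway genes described below, 43 were at 1 CPM or more in every library. Of the 59 genes, 17 were at 1 CPM or more in every library, which is 28.8% of them, beside 40.9% of all genes. The number was also 17 without replicate 3. A further 24 of the 59 had counts without reaching that limit everywhere, beside 6256 of all 24467 genes. Of the 24, 22 had 1 to 13 counts in all. The other 18 had none, or 30.5%, beside 33.5% of all genes. The median gene of the pathway was at 0.0161 CPM, beside 0.0764 CPM over all genes. The transcribed genes included those for the TGF-β1 ligand, a BMP and an activin type I receptor (Bmpr1a and Acvr1b), activin and BMP type II receptors, SMAD2, SMAD3, SMAD5, SMAD4 and the SKI family corepressors. At a mean of 50 CPM or more there were 7 genes, led by Skil and Smad4.

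**Figure D1:**
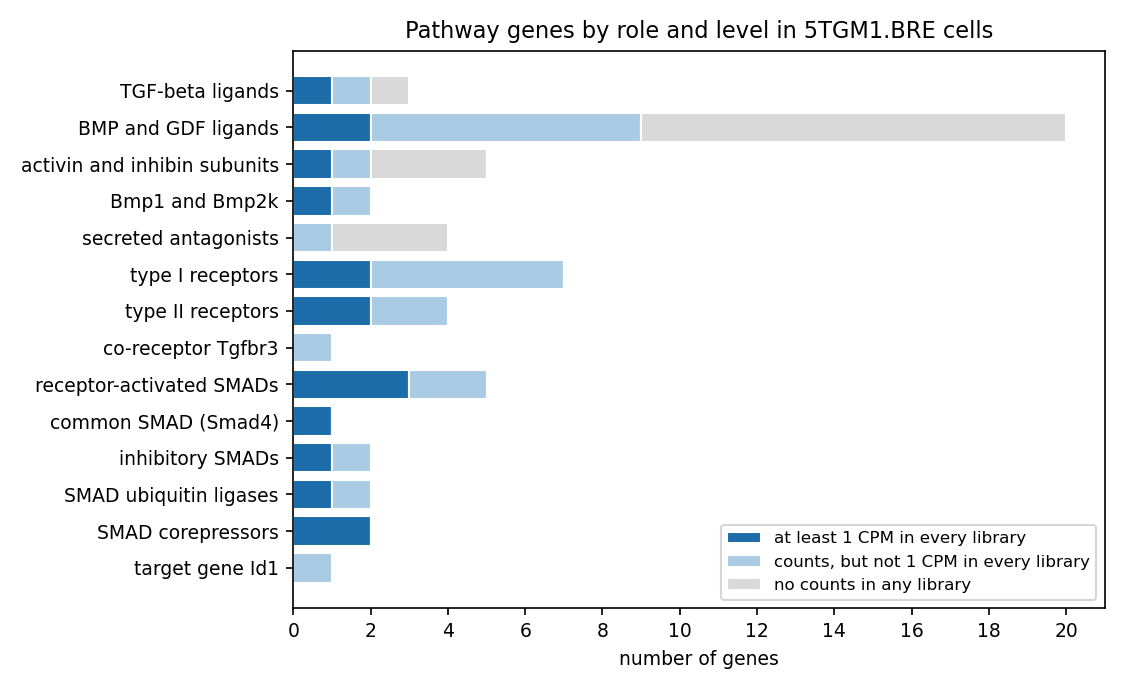
Number of pathway genes in each role (horizontal axis), split by level over the 3 libraries of 5TGM1.BRE cells. Of the 20 BMP and GDF ligand genes 11 had no counts, whereas every receptor and SMAD gene had at least 1.

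Among the secreted ligands, Tgfb1 stood far above the rest. Tgfb1, whose product restrains lymphocytes and is stored in bone, lies at bases 25687002 to 25705077 (plus strand) of chromosome 7. It had 5098, 3547 and 4584 counts in replicates 1, 2 and 3, or 81.8, 77.6 and 77.2 CPM, a mean of 78.9 ± 2.57 CPM (SD, n = 3). The 3 libraries lay close together, with the highest level 1.05 times the lowest after TMM scaling. Tgfb2, a second isoform, had 59, 58 and 69 counts and fell short of 1 CPM in replicate 1 alone, at 0.947 CPM. Tgfb3, the third isoform, had no counts. Per kilobase, Tgfb1 exceeded Tgfb2 by 6.34 ± 0.26 on the log2 scale (SD, n = 3), an 81.0-fold difference seen in 3 of 3 libraries, and was at least 2959-fold higher than Tgfb3 with the floor of 3 counts taken over all libraries. For this ratio and the 6 other ratios that had enough counts, a two-sided exact permutation test that flips signs gave p = 0.25 with n = 3, the lowest value possible with 3 libraries, and 0.25 once adjusted by Benjamini-Hochberg over all 7. Of the summed TPM of the 28 ligand and subunit genes, Tgfb1 made up 79.2 ± 0.756% (SD, n = 3).

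The next ligand gene per kilobase was Inhbe, which encodes the activin βE subunit, a product known mainly from the liver. Inhbe lies at bases 127348857 to 127354411 (minus strand) of chromosome 10 and had 963, 668 and 908 counts, or 15.5, 14.6 and 15.3 CPM (15.1 ± 0.445 CPM, SD, n = 3). Its level was even across libraries, and it held 14.4 ± 0.279% of the ligand TPM (SD, n = 3). Every other subunit gene of the activins and inhibins was at the floor. Inhba, which encodes the βA subunit of activin A, had no counts, nor did Inha, the α subunit of the inhibins, or Inhbc, and Inhbb had 1, 0 and 2 counts.

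Of the 20 BMP and GDF ligand genes, Gdf9 and Bmp6 passed 1 CPM in every library, both narrowly. Gdf9, best known as an oocyte factor, had 85, 58 and 97 counts, or 1.36, 1.27 and 1.63 CPM. Bmp6, known as the liver signal that raises the iron hormone hepcidin, had 85, 58 and 66 counts, or 1.36, 1.27 and 1.11 CPM. The 2 genes had the same counts in replicates 1 and 2 and parted in replicate 3, where Gdf9 was highest and Bmp6 lowest. Bmp6 shares 224 exonic bases, 5.7% of its union exon length, with the opposite strand of Txndc5, which had 72925, 52031 and 64147 counts, and the strand setting of the counting is not given, so how many of the Bmp6 counts belong to Bmp6 was not tested. Another 7 ligand genes had 1 to 4 counts in all: Bmp3, Bmp8a, Bmp8b, Gdf1, Gdf2, Gdf5 and Gdf15. Gdf1 lies wholly within exons of Cers1, which had no counts, and the near-identical sequences of Bmp8a and Bmp8b make their split uncertain. The genes Bmp2, Bmp4, Bmp5, Bmp7, Bmp10, Bmp15, Gdf3, Gdf6, Gdf7, Gdf10 and Gdf11 had no counts. Among them Bmp2, Bmp4 and Bmp7 encode the main bone-forming BMPs.

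A pair of genes carry the BMP name without encoding a ligand of the family. Bmp1 encodes a metalloprotease that trims procollagen and cleaves the antagonist chordin, and had 779, 496 and 682 counts, or 12.5, 10.9 and 11.5 CPM. Bmp2k, a kinase gene first found through BMP2 treatment, had 4, 4 and 3 counts. The secreted antagonists were all but absent. Nog, Grem1 and Fst, which encode noggin, gremlin and the activin-binding follistatin, had no counts, and Chrd, the chordin gene, had 1, 1 and 0.

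**Figure D2:**
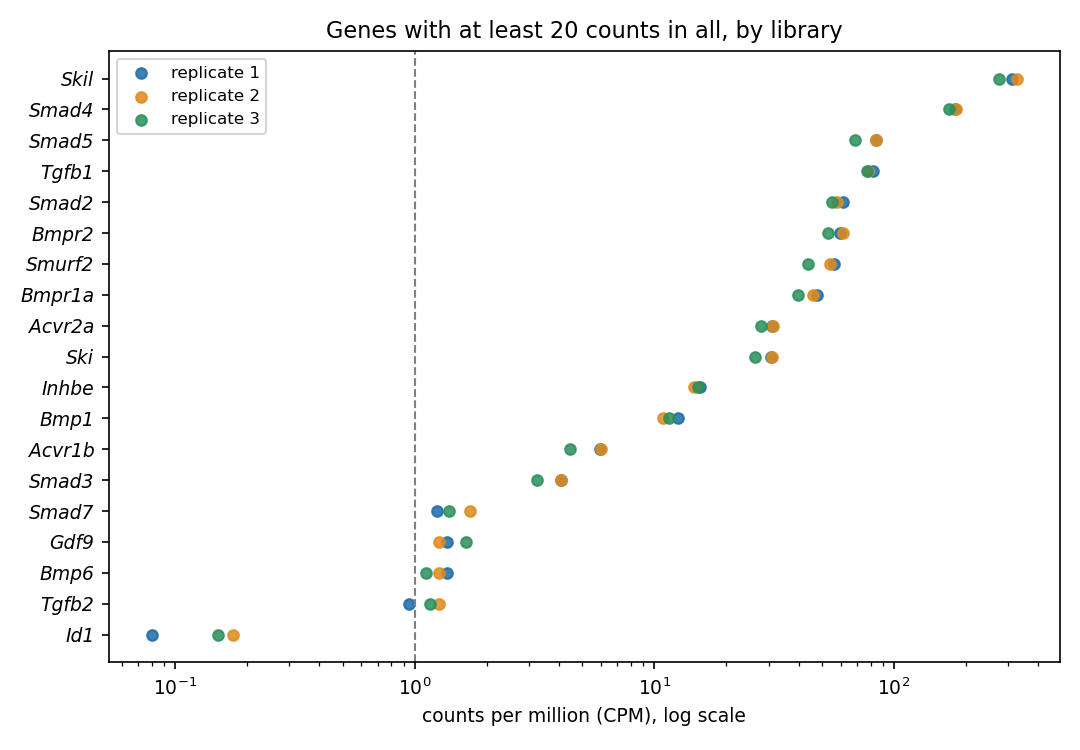
Level of each pathway gene with at least 20 counts in all (vertical axis) in CPM on a log scale (horizontal axis), with 1 point per library and a dashed line at 1 CPM. Skil and Smad4 lead, Tgfb2 straddles the line and Id1 lies well below it.

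The receptors for TGF-β itself were not transcribed at a level above a stray count. Tgfbr1, the type I receptor at bases 47353222 to 47414931 (plus strand) of chromosome 4, had 0, 0 and 2 counts. Tgfbr2, the type II receptor without which TGF-β does not signal, lies at bases 116084293 to 116175360 (minus strand) of chromosome 9 and had 0, 0 and 1 counts. Pooled over 167411705 counts, these allow up to 0.0432 CPM for Tgfbr1 and 0.0333 CPM for Tgfbr2 by the same exact interval. Both genes had all of their counts in replicate 3. The co-receptor gene Tgfbr3, whose product betaglycan presents TGF-β to its receptors, had 2, 1 and 1 counts.

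BMP and activin receptors were present. Among the 7 type I genes, Bmpr1a and Acvr1b were at 1 CPM or more in every library, and the other 5 had 2 to 11 counts in all. Bmpr1a, which encodes the BMP receptor ALK3 and lies at bases 34410734 to 34503341 (minus strand) of chromosome 14, had 2977, 2091 and 2356 counts, or 47.8, 45.7 and 39.7 CPM. Acvr1b, which encodes the activin receptor ALK4, had 368, 274 and 265 counts, or 5.91, 5.99 and 4.46 CPM. Replicate 3 was the lowest library for both. Per kilobase, Bmpr1a made up 84.7 ± 0.954% and Acvr1b 14.9 ± 0.973% of the type I receptor TPM (SD, n = 3 for each). The genes for activin- and TGF-β-class receptors (Tgfbr1, Acvr1b and Acvr1c) together lay below those for the BMP class (Acvr1, Acvrl1, Bmpr1a and Bmpr1b) by a log2 ratio of -2.51 ± 0.11 (SD, n = 3), or 5.68-fold, in 3 of 3 libraries.

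Paralogs of the transcribed receptors differed from them by orders of magnitude. Acvr1, the BMP receptor gene mutated in a human disorder of ectopic bone, had 3, 0 and 0 counts, and Bmpr1a exceeded it 1882-fold per kilobase in pooled counts (exact 95% interval 644 to 9126). Tgfbr1 lay 671-fold below Acvr1b on the same measure (185 to 5547). Such intervals for pooled counts cover counting error only and not differences between the libraries. Acvrl1, an endothelial receptor gene, had 4, 3 and 4 counts, Bmpr1b had 5, 2 and 1, and Acvr1c had 2, 3 and 3.

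The type II receptors were Acvr2a and Bmpr2. Acvr2a, a receptor for activins and some BMPs at bases 48814109 to 48903269 (plus strand) of chromosome 2, had 1927, 1430 and 1656 counts, or 30.9, 31.3 and 27.9 CPM. Bmpr2, the dedicated BMP type II receptor, had 3696, 2793 and 3151 counts, or 59.3, 61.1 and 53.0 CPM. Per kilobase the order turned, because the union exon length of Bmpr2 is 17983 bases and that of Acvr2a 5686. Bmpr2 was at 10.1 ± 1.13 TPM and Acvr2a at 16.6 ± 1.70 TPM (SD, n = 3 for each), a log2 ratio of -0.72 ± 0.019 (SD, n = 3) with the same sign in 3 of 3 libraries, while the ratio was -0.24 with the longest transcript as the length and 0.94 without lengths. Acvr2a shares 446 exonic bases, 7.8% of its length, with the opposite strand of Orc4, which had 28795 counts in all, so some of its counts are uncertain. Acvr2b, the close relative of Acvr2a, had 1, 0 and 1 counts, and Acvr2a exceeded it 1732-fold per kilobase in pooled counts (exact 95% interval 479 to 14302).

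**Figure D3:**
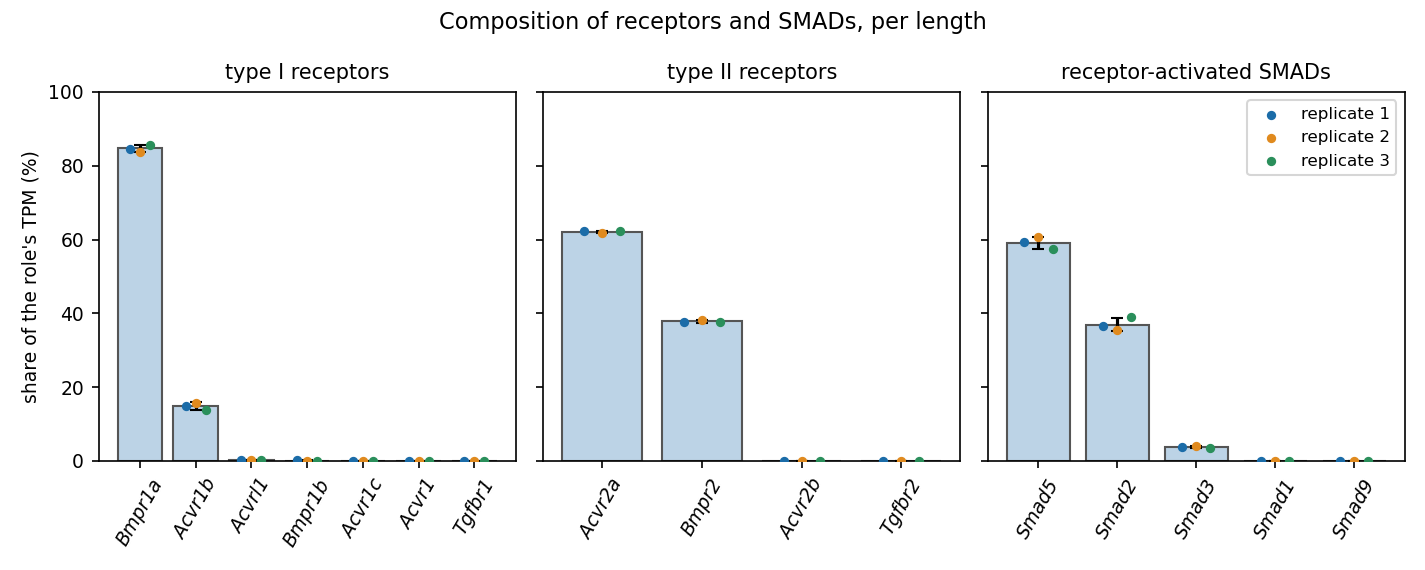
Share of each gene in the summed TPM of its role (vertical axis, percent), as the mean of 3 libraries with SD bars and 1 point per library. Bmpr1a holds 84.7% of type I receptors, Acvr2a 62.1% of type II receptors (34.2% by counts without lengths) and Smad5 59.2% of receptor-activated SMADs.

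The start regions of 4 receptor genes are shown because they set the silent TGF-β receptors beside the transcribed receptors Bmpr1a and Acvr2a. Each is the RefSeq window (GRCm38.p6) running from 250 bases before to 50 after the most upstream start in the RefSeq table, in the sense of the gene, and capitals mark CG, a motif that reads the same on both strands. The RefSeq start lies at the GENCODE gene end for Tgfbr1 and Acvr2a, 3 bases from it for Tgfbr2 and 795 bases inside the gene for Bmpr1a. The windows are chr4:47352972-47353271 on the plus strand, chr9:116175314-116175613 on the minus strand, chr14:34502497-34502796 on the minus strand and chr2:48813859-48814158 on the plus strand.
Tgfbr1: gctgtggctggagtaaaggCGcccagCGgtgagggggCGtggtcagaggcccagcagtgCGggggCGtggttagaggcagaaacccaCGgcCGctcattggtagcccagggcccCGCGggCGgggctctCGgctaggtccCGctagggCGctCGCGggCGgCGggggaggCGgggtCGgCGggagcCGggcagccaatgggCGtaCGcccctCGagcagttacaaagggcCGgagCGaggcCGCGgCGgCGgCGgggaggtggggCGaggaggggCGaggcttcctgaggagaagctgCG
Tgfbr2: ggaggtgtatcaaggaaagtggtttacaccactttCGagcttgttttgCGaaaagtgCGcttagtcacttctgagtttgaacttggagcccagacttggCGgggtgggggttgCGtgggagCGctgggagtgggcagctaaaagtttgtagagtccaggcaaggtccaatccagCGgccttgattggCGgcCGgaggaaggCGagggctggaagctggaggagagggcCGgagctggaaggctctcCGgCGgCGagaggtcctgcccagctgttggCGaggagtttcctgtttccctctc
Bmpr1a: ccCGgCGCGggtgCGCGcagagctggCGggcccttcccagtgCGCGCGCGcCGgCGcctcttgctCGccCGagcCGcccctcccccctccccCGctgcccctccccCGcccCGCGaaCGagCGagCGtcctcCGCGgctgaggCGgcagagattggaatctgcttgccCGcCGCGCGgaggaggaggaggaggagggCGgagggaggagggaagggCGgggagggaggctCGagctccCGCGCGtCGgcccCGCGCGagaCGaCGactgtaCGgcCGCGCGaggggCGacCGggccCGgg
Acvr2a: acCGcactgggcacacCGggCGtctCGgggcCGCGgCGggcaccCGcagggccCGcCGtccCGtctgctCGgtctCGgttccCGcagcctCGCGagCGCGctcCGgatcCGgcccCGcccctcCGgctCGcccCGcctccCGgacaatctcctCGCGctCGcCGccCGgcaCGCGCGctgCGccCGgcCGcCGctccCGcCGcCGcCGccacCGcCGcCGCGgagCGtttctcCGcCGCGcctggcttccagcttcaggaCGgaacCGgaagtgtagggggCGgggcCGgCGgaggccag
Tgfbr1 holds 34 CG, a number reached by 7.49% of 27026 gene windows, and Tgfbr2 holds 15, reached by 35.2%. Bmpr1a holds 48, reached by 1.18%, and Acvr2a 54, reached by 0.355%. Of these 4 windows that of Tgfbr2 had the fewest, and that of the silent Tgfbr1 lay between Tgfbr2 and Bmpr1a. That order did not hold over the other receptor genes. The transcribed Bmpr2 held 23, fewer than Tgfbr1, and the transcribed Acvr1b held 51. With few counts, Acvr1c held 39, Acvr2b 27 and Bmpr1b 5. Over the 41 pathway genes with a window, the median was 31 CG for the 11 genes at 1 CPM or more. It was 27 for the 19 with fewer counts and 7 for the 11 without counts. The median was 7 over all genes, of which 94.2% have at least 1 CG. All genes were not split by level in this way, so whether the split is particular to the pathway was not tested. Skil, Smad4, Smad2 and Smad7 were among the transcribed genes without a window. Of the genes with low counts, Acvr1, Smurf1 and Bmp2k held 51, 49 and 45 CG, and of the transcribed genes Inhbe held 6 in a window 2563 bases from its GENCODE end. The windows of Gdf1 and Bmpr1b lie 14042 and 187161 bases from theirs.

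Of the SMAD genes, Smad4 was the most abundant. Smad4, the partner shared by both branches, lies at bases 73639009 to 73703780 (minus strand) of chromosome 18. It had 11173, 8264 and 10060 counts, or 179, 181 and 169 CPM, and at 149 ± 11.4 TPM (SD, n = 3) made up 72.2 ± 1.07% of all SMAD TPM. Smad4 exceeded Smad2 by 2.84 ± 0.049 on the log2 scale per kilobase (SD, n = 3), or 7.17-fold, in 3 of 3 libraries.

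At the RNA level, each branch had 1 main receptor-activated SMAD gene. In the BMP branch this was Smad5, with 5258, 3837 and 4103 counts, or 84.4, 83.9 and 69.1 CPM. Its paralogs Smad1 and Smad9 had 6, 3 and 4 counts and 1, 0 and 0 counts. Smad5 thus exceeded Smad1 857-fold per kilobase in pooled counts (exact 95% interval 501 to 1610). In the TGF-β and activin branch it was Smad2, with 3827, 2649 and 3291 counts, or 61.4, 58.0 and 55.4 CPM. Smad3, which unlike the main form of SMAD2 binds DNA directly, had 254, 186 and 192 counts, or 4.08, 4.07 and 3.23 CPM. Smad2 exceeded Smad3 by 3.28 ± 0.14 on the log2 scale (SD, n = 3), or 9.74-fold. Set against each other per kilobase, the TGF-β and activin branch (Smad2 and Smad3) was below the BMP branch (Smad1, Smad5 and Smad9) by a log2 ratio of -0.54 ± 0.097 (SD, n = 3), or 1.45-fold, in 3 of 3 libraries.

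The inhibitory SMADs were low. Smad7 had 77, 78 and 83 counts, or 1.24, 1.71 and 1.40 CPM, and was highest in replicate 2. Smad6, the inhibitor tied to BMP signalling, had 0, 2 and 1 counts, and Smad7 exceeded it 56.2-fold per kilobase in pooled counts (exact 95% interval 19.0 to 275).

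Skil, a negative regulator inside the cell, was the highest gene of the pathway by CPM and came after Smad4 by TPM, at 98.6 ± 12.1 TPM (SD, n = 3). Skil encodes the SMAD corepressor SnoN, lies at bases 31095058 to 31122577 (plus strand) of chromosome 3 and had 19456, 14841 and 16351 counts, or 312, 325 and 275 CPM. Its level ranked 605 of 24467 genes by CPM. Ski, the founding gene of that family, had 1914, 1421 and 1560 counts, or 30.7, 31.1 and 26.3 CPM. Ski lay below Skil by a log2 ratio of -2.57 ± 0.024 per kilobase (SD, n = 3), or 5.95-fold, in 3 of 3 libraries, and replicate 3 was lowest for both. Smurf2, a ubiquitin ligase for SMADs and receptors, had 3517, 2479 and 2597 counts, or 56.4, 54.2 and 43.7 CPM. Its paralog Smurf1 had 3, 1 and 4 counts, so that Smurf2 exceeded it 1104-fold per kilobase in pooled counts (exact 95% interval 560.3 to 2559).

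Id1, a direct target of BMP signalling that encodes an inhibitor of helix-loop-helix factors, was nearly silent. It lies at bases 152736251 to 152737410 (plus strand) of chromosome 2 and had 5, 8 and 9 counts, or 0.0803, 0.175 and 0.152 CPM. Its relatives were transcribed: Id2 had 4069, 2976 and 4661 counts and Id3 had 443, 337 and 528. Id1 was 38.5-fold below Id3 per kilobase in pooled counts (exact 95% interval 25.3 to 61.7). Of the TPM of the Id genes, Id2 made up 86.5 ± 0.361%, Id3 13.2 ± 0.245% and Id1 0.354 ± 0.131% (SD, n = 3 for each), and Id4 had no counts.

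Beyond these, 91 further pathway genes were listed, of which 89 were matched in the tables, and 43 of these were at 1 CPM or more in every library, beside 40.9% of all genes. Among 17 receptor-proximal adaptors and regulators, 16 passed, led per kilobase by Strap, which binds TGF-β receptors, at 324 ± 6.68 TPM, Fkbp1a, a guard of type I receptors, at 268 ± 6.84 TPM and the ubiquitin ligase gene Stub1 at 120.4 ± 7.13 TPM (SD, n = 3 for each). Of 15 nuclear cofactors 10 passed, led by E2f4 at 122 ± 3.26 TPM, the corepressor gene Tgif1 at 39.0 ± 0.791 TPM and Sp1 at 37.1 ± 7.06 TPM (SD, n = 3 for each). These lists hold genes that act inside the cell.

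Of 8 genes that process, tether or activate latent TGF-β, 3 passed. The αV integrin gene Itgav was at 22.8 ± 2.75 TPM and the proprotein convertase gene Furin at 19.7 ± 2.46 TPM (SD, n = 3 for each). Nrros, which tethers latent TGF-β on myeloid cells, was at 10.5 ± 0.426 TPM (SD, n = 3). Lrrc32, the tether of regulatory T cells, and Itgb8, an integrin chain that pairs with αV to activate TGF-β, had no counts. Of 16 secreted antagonists and binding proteins 3 passed, and the highest per kilobase was Twsg1, a modulator of chordin and BMP binding, at 63.6 ± 7.76 TPM, ahead of Dand5 at 2.44 ± 0.251 TPM and Ltbp4 at 1.83 ± 0.141 TPM (SD, n = 3 for each).

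Of 9 other surface genes, Rgmb, a BMP co-receptor, at 8.36 ± 0.819 TPM and Bambi, a decoy receptor, at 4.92 ± 0.287 TPM passed the limit (SD, n = 3 for each), while Amhr2, the third by TPM, had 20, 16 and 27 counts. Eng, which encodes endoglin, had 3, 8 and 5. None of 5 other ligand genes passed: Amh had 55, 43 and 53 counts, Lefty1 had 1, 1 and 0 and Lefty2 had 0, 0 and 1. Of 19 target genes 9 passed, led per kilobase by Cdkn1a at 234 ± 2.97 TPM, Id2 at 89.3 ± 5.85 TPM and Gadd45b at 69.9 ± 3.99 TPM (SD, n = 3 for each), all of which also respond to other signals. Pmepa1, a common marker of TGF-β signalling, had no counts.

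Differences between the libraries were small and lay mostly with replicate 3. Across the 17 genes at 1 CPM or more, the median ratio of highest to lowest library was 1.16 after TMM scaling, beside 1.15 over all genes at that level. A chi-square test of each gene's counts over the 3 libraries, with Benjamini-Hochberg adjustment over 11867 genes, called 10 of 19 pathway genes with at least 20 counts, beside 60.2% of all genes tested. These were Bmpr1a, Acvr1b, Acvr2a, Bmpr2, Smad2, Smad4, Smad5, Smurf2, Ski and Skil. The test takes counts as independent and compares these libraries only. Between replicates 1 and 2 alone it called 1 of 18, Skil, beside 8.66% of all genes.

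In replicate 3, 12 of the 17 genes were lower than in both other libraries, beside 45.2% of all genes at 1 CPM or more, and 2, Inhbe and Gdf9, were higher than in both, beside 46.1%. The log2 difference of replicate 3 from the mean of replicates 1 and 2 ran from -0.38 for Acvr1b to 0.35 for Gdf9, with a median of -0.15, beside 0.00387 over all genes. Long genes were lower in replicate 3 across the transcriptome, with a Spearman correlation between this difference and union exon length of -0.64 across 9966 genes, which share their libraries and are not independent. The pathway genes were longer than most, with a median of 5562 bases beside 4465 over all genes at that level. With the loess trend on length removed, 9 of the 17 were lower in replicate 3, beside 42.2% of all genes, 5 were higher, beside 44.3%, and the median difference was -0.05. The most negative values were then -0.37 for Acvr1b, -0.23 for Smad3, -0.22 for Bmp6 and -0.21 for Smurf2. Bmpr2, Smad2, Skil and Tgfb1 changed sign, to 0.13, 0.11, 0.02 and 0.04, and Bmpr2, Smad2 and Skil were no longer among the genes lower in replicate 3 than in both other libraries.

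**Figure D4:**
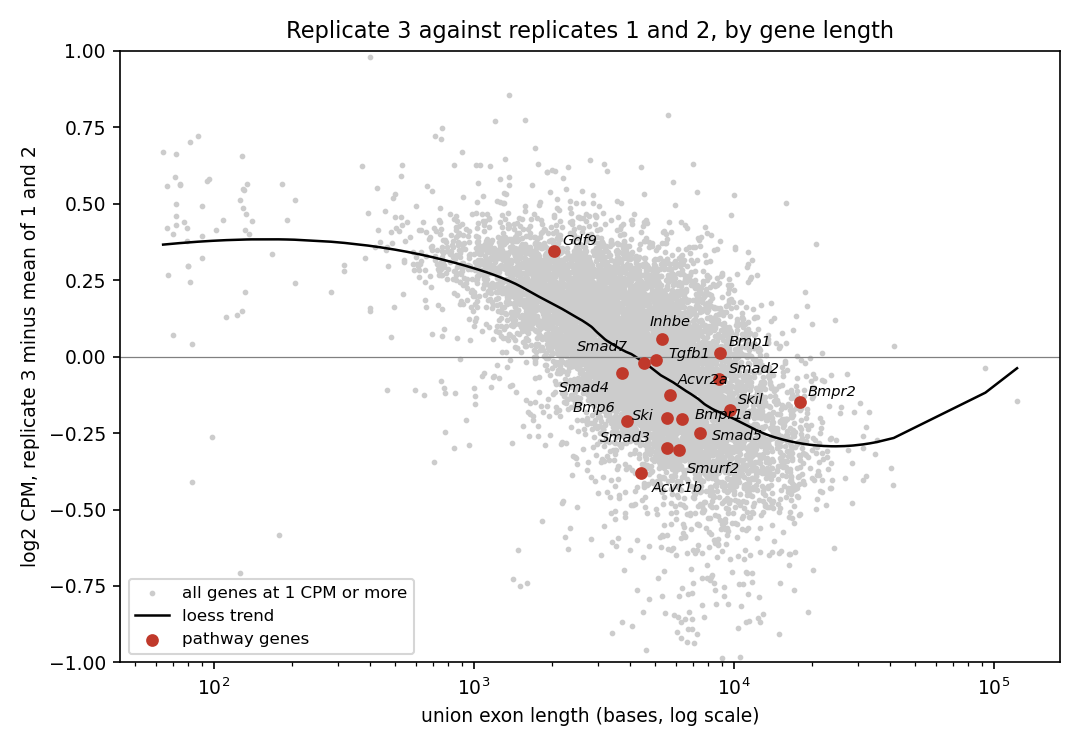
Log2 difference of replicate 3 from the mean of replicates 1 and 2 (vertical axis, TMM-scaled CPM) against union exon length in bases (horizontal axis, log scale) for genes at 1 CPM or more, with the 17 pathway genes in red and the loess trend in black. The pathway genes lie on both sides of the trend, with Acvr1b lowest and Gdf9 highest among them. The long genes Bmpr2, Bmp1 and Smad2 lie above it, and 26 genes lie beyond the vertical limits.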

How the data were processed

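The data are 3 RNA-seq libraries of 5TGM1.BRE cells. Each deposited table holds raw counts per gene symbol for 1 library. The submitters' processing notes name bcl2fastq, cutadapt 4.2, STAR and the build mm10. How the authors counted reads, on which annotation and whether by strand, is not given in the sources used here. Genes that overlap others or have near-identical copies are thus uncertain. Of the 59 pathway genes, 19 share exonic bases with another gene.

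All 3 samples formed 1 group by their titles, with 45705994 to 62303493 counts each. The cell type label of replicate 1 does not mention culture in bortezomib, unlike that of replicates 2 and 3, while its title and growth protocol are the same. Pairs of libraries differed beyond independent counting and were kept apart. No comparison between groups was possible, so edgeR had no coefficient to test.

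Counts were scaled to CPM by library totals. Lengths came from GENCODE M21 for 98.7% of symbols, and TPM, from these counts per kilobase, rests on them. Of the pathway genes, 59 had a length. Ratios within a library were tested by an exact permutation test (sign flips, two-sided) where both sides had at least 10 counts per library. Otherwise pooled counts were compared with an exact 95% binomial interval, which covers counting error only. A chi-square test of homogeneity took TMM factors from edgeR 4.0.16 (R 4.3.3) and genes with at least 20 counts, with Benjamini-Hochberg adjustment at 0.05. It was tested on simulated data with independent counting noise only, which the differences between these libraries exceed. The trend on length was a loess fit (span 0.3). Python 3.11.15 and SciPy 1.17.1 were used. Promoter windows are from RefSeq (GRCm38.p6), and 41 of the pathway genes matched.

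Every pathway gene is accounted for, those at 1 CPM or more and those in ratios with values per library. Of further pathway genes the 3 highest per kilobase of each list are named. Eng, Pmepa1, Lrrc32, Itgb8, the neighbours Txndc5, Orc4 and Cers1 and the markers named below 1 CPM were picked with their values in view. Some listed genes are not reported here. The genes and lists were chosen with earlier results of these data known. Alternatives were other detection limits, TMM, RLE from DESeq2 1.42.0 or no scaling, other count minimums, other lengths, a pseudocount, removal of the length trend and leaving out each replicate.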

Additional observations from a re-analysis of the deposited data

How the results depend on the processing

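Of 78 values recomputed under alternatives, 74 kept their direction and size class. The count of 17 pathway genes at 1 CPM or more ranged from 14 at 2 CPM to 18 at 0.5 CPM, and was 15 at 1 TPM. The count of 43 further pathway genes ranged from 40 to 46. The ratio of Bmpr2 to Acvr2a was the 1 that turned, with a log2 value of 0.94 without lengths, since Bmpr2 is the longer gene. The median level was 0.0674 CPM over members with at least 1 count, a subset that leaves out the 18 at 0, and 0.0168 to 0.0194 CPM with 1 replicate left out. The 10 genes that varied between libraries became 1 without replicate 3, and the range over the replicates left out was 1 to 11. The 12 genes lower in replicate 3 became 9 at a limit of 5 CPM, where fewer genes were tested, and 9 with the length trend removed. No paired analysis was possible because all samples belong to 1 group. Depth limits statements on the 18 genes without counts to levels up to 0.0179 CPM at 3 counts, or 0.0220 CPM by the exact interval, by which Tgfbr1 and Tgfbr2 may lie at up to 0.0432 and 0.0333 CPM.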
